A study of Drosophila melanogaster with 4 samples.

Results

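The Enhancer of split complex of Drosophila melanogaster was described by the peaks that an antibody against CG16778 gave over it. CG16778, listed as lov in the gene table, encodes a BTB-domain protein, and its place on chromatin was mapped by chromatin immunoprecipitation and sequencing (ChIP-seq), in which DNA bound by a protein is pulled down and sequenced. The window on arm 3R from 21800000 to 21890000 (release 5 of the genome, 90 kb) was chosen by the number and scores of its peaks in earlier work on the same list, and a peak belonged to it if its midpoint fell inside. This gave 31 of the 1013 peaks on 3R and of the 4164 peaks in the whole list. Its number of peaks and their scores are therefore descriptions, and none of them was tested.

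The study held 4 libraries, namely 2 ChIP and 2 input libraries from whole, unsorted embryos of unknown sex. The embryos were of the y; cn bw sp stock, staged at 0 to 8 h in the labels, although the protocol names an egg laying of 8 to 16 h. All libraries shared one genotype, with y[1] and oc[R3.2], then Gr22b[1] and Gr22d[1], cn[1] with CG33964[R4.2], bw[1] and sp[1], and also LysC[1] with lab[R4.2], MstProx[1], GstD5[1] and Rh6[1]. No treatment was compared. The antibody was a rabbit polyclonal against a stretch of CG16778. Only 1 peak list was used here, with no values per library, so no value below carries a replicate error and the read depth is unknown.

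The complex is a cluster of small genes that Notch signalling switches on. When a neighbouring cell presents a ligand, the Notch receptor is cut, its inner part joins the DNA-binding protein Su(H), and genes of the complex are transcribed. Most of them encode basic helix-loop-helix (bHLH) repressors, which hold back neural fate together with the corepressor Groucho, whose gene gro lies at one end of the cluster. Others encode Bearded family proteins (BFM), which inhibit the ubiquitin ligase Neuralized and so act back on ligand activity. Kaz-m1, named for a Kazal-type protease inhibitor domain, belongs to neither class.

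All 31 peaks lay in 46.5 kb, from 21822268 to 21868760, so the outer parts of the window held none. The first peak inside lay 22.4 kb from the left edge of the window and scored 16.39, and the last lay 21.96 kb from the right edge and scored 47.3. The nearest peak outside on the left scored 7.98 and lay 80.6 kb beyond the edge. On the right the nearest scored 20.57 and lay 473 kb beyond it. The stretch without a peak to the right of the complex, 493 kb with 38 protein-coding genes, was the longest of the 1012 on 3R, ahead of one of 411 kb elsewhere on the arm. The stretch without a peak on the left was 103 kb and ranked 76.

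Peaks were much denser here than along the rest of the arm. The window held 344 peaks per Mb and the rest of 3R held 35.3, a ratio of 9.76. Among 308 other windows of 90 kb tiled along 3R, the median held 2 peaks, 93 held none, 17 held 10 or more, and the fullest held 21. Peaks covered 16.9 kb, or 18.8% of the window, beside 1.63% of the rest of 3R. Of the 46.5 kb that the peaks themselves spanned, they covered 36.4%. Widths from 214 to 1816 bp had a median of 382 bp (quartiles 264 and 730 bp), beside 358 bp (259 and 578 bp) on the rest of 3R, and 4 of the 31 were wider than 1000 bp (12.9%, beside 6.92%).

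**Figure D1:**
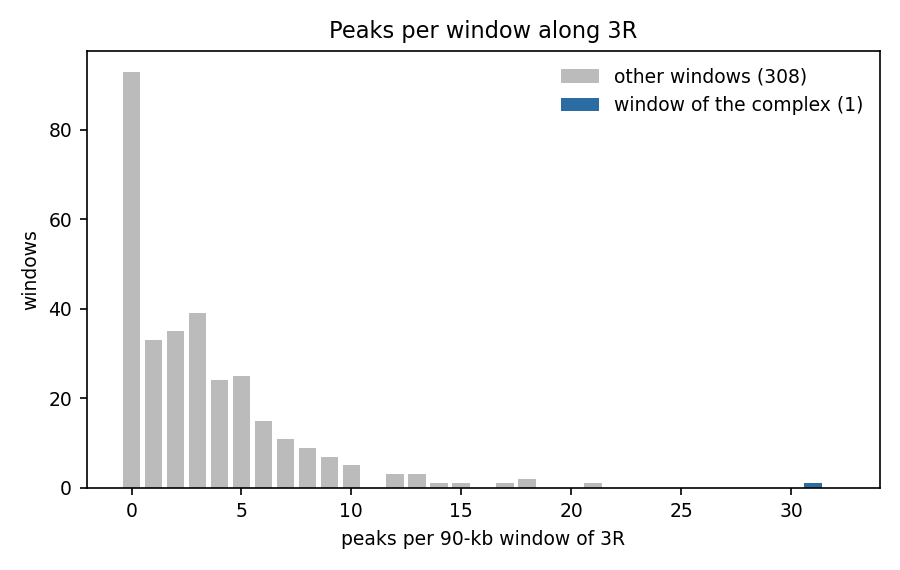
Number of peaks (horizontal axis) in each 90-kb window of 3R, with the number of windows on the vertical axis. The window of the complex, with 31 peaks, stands to the right of the other 308, of which the fullest held 21.

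Neighbouring peak centres of the complex were a median of 1071 bp apart (quartiles 771 and 1926 bp, range 430 to 4921 bp), beside 6347 bp on the rest of 3R. Of these 30 distances, 14 (46.7%) were at most 1000 bp and 23 (76.7%) at most 2000 bp, beside 24.1% and 38.1% on the rest of the arm. The widest gaps between peak edges were 3990 bp, right of the peak in E(spl)m7-HLH, and 3987 bp, left of the peak in E(spl)m5-HLH. Only 1 other group of 10 or more peaks with gaps of up to 5 kb was found on 3R. It held 17 peaks from 12056595 to 12081144, with a median spacing of 1282 bp, a coverage of 30.8% and 0.692 peaks per kb, beside 0.667 per kb in the complex. The complex was longer than that group, with a shorter median spacing and more coverage but slightly fewer peaks per kb, and its highest score was 289.64 against 22.77.

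**Figure D2:**
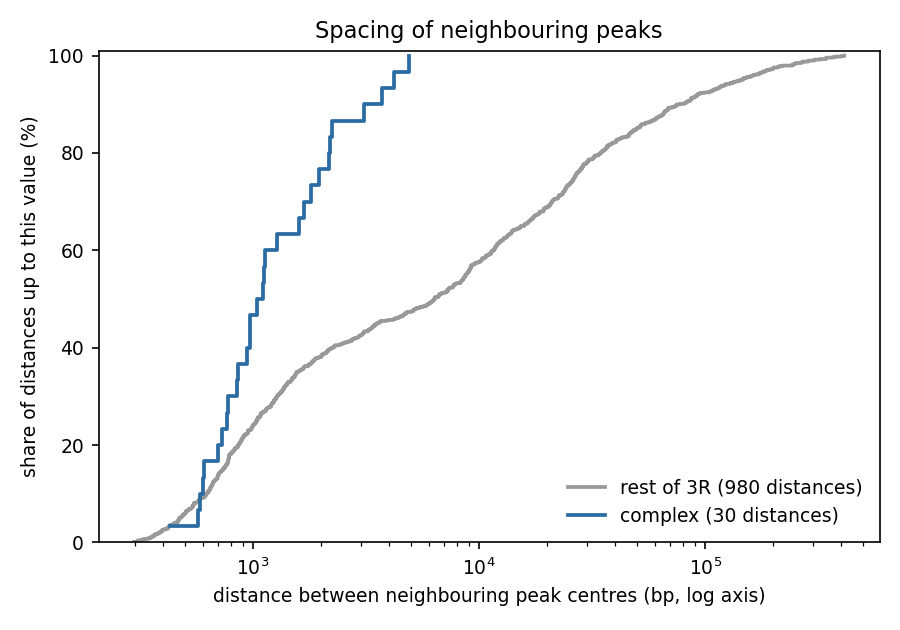
Cumulative share of distances between neighbouring peak centres (percent, vertical axis) by distance in bp (log axis), for 30 distances in the complex and 980 on the rest of 3R. The median was 1071 bp in the complex and 6347 bp outside.

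The score is the authors' value for each peak, given by the caller named MACS in the file with no unit, and is used here only to rank peaks within the list. The typical score of the complex was close to that of the arm, with a median of 12.73 (quartiles 10.6 and 15.9) beside 12.12 (9.74 and 16.2) on the rest of 3R. Of the 31 peaks, 18 lay within the quartiles of the rest of 3R, 8 above them and 5 below. Scores of at least 20 were given to 4 of the 31 (12.9%), beside 14.6% of the 982 other peaks of 3R. The complex was therefore not a region of high scores throughout, but one with 4 high peaks, of 289.64, 78.04, 47.3 and 30.5, among 27 that did not exceed 19.27. Among the 84 other windows with at least 5 peaks, 40 had a higher median score. The ranking by highest score was led by the complex, since no other window of 3R exceeded 70.01.

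**Figure D3:**
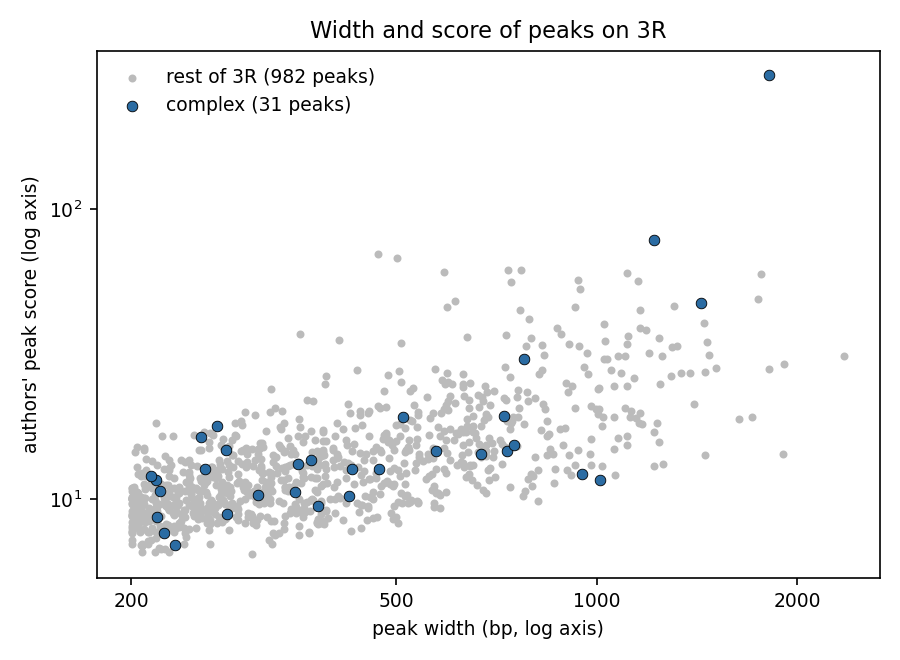
Width in bp and authors' score of every peak on 3R, both on log axes, with the 31 peaks of the complex in blue and the 982 others in grey. Most peaks of the complex lie within the cloud of the arm, and the peaks of 289.64 and 78.04 lie above it.

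Wider peaks had higher scores in the complex as elsewhere. Spearman's correlation between width and score was 0.60 over its 31 peaks and 0.67 over the 982 others, given as a description, since both measures come from one pileup of reads. The 3 peaks with the highest scores were 1816, 1220 and 1432 bp wide and were the 3 widest of the complex. The narrowest, 214 bp, scored 12.04 and lay inside E(spl)m5-HLH.

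To name the genes under the peaks, the positions of a release 6 gene table were moved to release 5 by 1 shift, found on 3R from peaks outside the window. Counting how many peaks held a gene end at each shift gave 252 at most, at a shift of 4174600 bp, against 130 at any shift over 3000 bp away. Lower and upper ends had separate maxima, at 4173970 and 4174600 bp. Their profiles were taken to mirror each other, and the centre of symmetry, 4174290 bp, was the shift used. Read from that centre, peaks on the arm lay most often about 315 bp inside the ends of genes. This restates the distance between the maxima and is no separate check of the shift. Taken apart, 4 equal parts of the arm gave 4174280 to 4174300 bp. Distances between peaks and genes below rest on this shift and share its error, and no strand was known, so that the start of a gene could not be told from its end.

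With this shift, the peaks ran from CG43116, just left of E(spl)mdelta-HLH, to the left end of gro, and so lay over the complex up to gro. Of its 13 genes, 11 were overlapped by a peak, among them 8 of the 9 genes listed as members, whereas 18.3% of the 3398 protein-coding genes of 3R were overlapped. An end lay inside a peak in 5 of the 13 (4.71% of 3R genes), in or within 250 bp of a peak in 11 (15.7%), and the gene lay within 500 bp of a peak in 12 (23.4%). With the shift of 4174600 bp, an end lay inside a peak in 9 of the 13, beside 9.39% of 3R genes, and 11 were again overlapped. A peak scoring at least 20 lay within 2 kb of 7 of the 13, beside 7.12% of 3R genes. Neighbouring genes shared such peaks, as E(spl)m5-HLH and E(spl)m6-BFM shared that of 289.64. These counts follow in part from the number and scores of peaks for which the window was chosen. Nothing further is read from them.

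**Figure D4:**
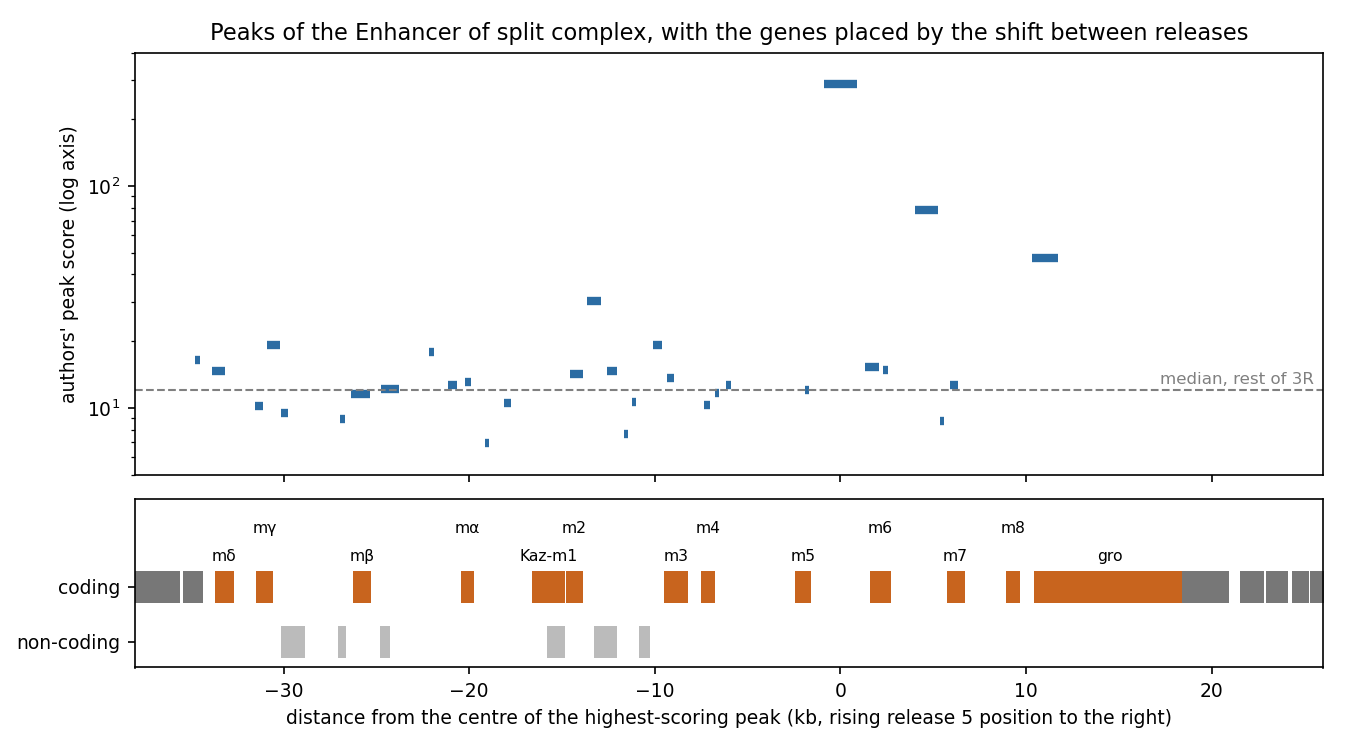
Peaks of the complex as horizontal lines from their start to their end, at the authors' score on a log axis, above the placed genes (orange for the 13 genes of the complex, grey for others), by distance in kb from the centre of the highest-scoring peak. Peaks run from just left of mδ to the left end of gro with gaps of up to 3990 bp, and the 3 highest stand from between m5 and m6 to the left end of gro.

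Of the 4 highest peaks, 3 stood between protein-coding genes and 1 lay mostly over gro. The peak of 289.64, first of the whole list, ran from 21856120 to 21857935 in the 3.17-kb stretch between E(spl)m5-HLH, a bHLH repressor gene, and E(spl)m6-BFM, a Bearded family gene. It overlapped neither, lying 674 bp from the former and 685 bp from the latter. The second score of the complex was 78.04 and its median 12.73. The peak of 78.04, second on 3R and 16th of the list, ran from 21861042 to 21862261 between E(spl)m6-BFM and the bHLH repressor gene E(spl)m7-HLH, 1284 bp from the former and 486 bp from the latter. The peak of 47.3 (21867329 to 21868760, 16th on 3R) covered the left end of gro, the corepressor gene, with 91.8% of its length in the gene, and lay 610 bp from the bHLH repressor gene E(spl)m8-HLH. The fourth, of 30.5 (21843372 to 21844149, 54th on 3R), lay 191 bp right of E(spl)m2-BFM, a Bearded family gene, over the end of the non-coding gene lncRNA:CR43643.

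The 3 bHLH repressor genes on the left were each overlapped by peaks, none of which scored 20 or more. E(spl)mdelta-HLH had 1 peak of 14.63 over its left end. Over E(spl)mgamma-HLH lay 2, of 10.27 on its left and 19.27 on its right end, the latter the fifth score of the complex and the highest over a bHLH gene. E(spl)mbeta-HLH had 1 of 11.62, which was 1011 bp wide and covered 92.8% of the gene. The next peaks, of 9.47 and 8.91, lay between E(spl)mgamma-HLH and E(spl)mbeta-HLH over the non-coding genes lncRNA:CR45037 and lncRNA:CR45038.

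Of the 4 bHLH genes of the middle and right, 3 were overlapped by 1 peak each, of lower score than the highest within 2 kb, as was also so at E(spl)mdelta-HLH and E(spl)mbeta-HLH. E(spl)m3-HLH held 1 of 13.67, with one of 19.21 only 108 bp to its left. Inside E(spl)m5-HLH lay 1 of 12.04, and inside E(spl)m7-HLH 1 of 12.7, with one of 8.71 lying 124 bp to its left. E(spl)m8-HLH alone among the bHLH genes had no peak over it or within 500 bp, and the 2.22-kb stretch between it and E(spl)m7-HLH had none either.

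Bearded family genes were each overlapped by at least 1 peak. E(spl)malpha-BFM held 1 of 13.17, and to its left, towards E(spl)mbeta-HLH, lay peaks of 12.73, 17.88 and 12.17, the last over lncRNA:CR45039. Right of it were peaks of 6.95, the lowest of the complex, and 10.58. Within E(spl)m2-BFM lay a peak of 14.28, and beyond the peak of 30.5 followed 14.67, 7.64 and 10.63 on the way to E(spl)m3-HLH. E(spl)m4-BFM held 1 of 10.35, followed on its right by 11.65 and 12.7. E(spl)m6-BFM had 2, of 15.39 on its left end and 14.81 inside. Kaz-m1 had no peak over it, and the nearest, the 14.28 in E(spl)m2-BFM, lay 285 bp away.

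**Figure D5:**
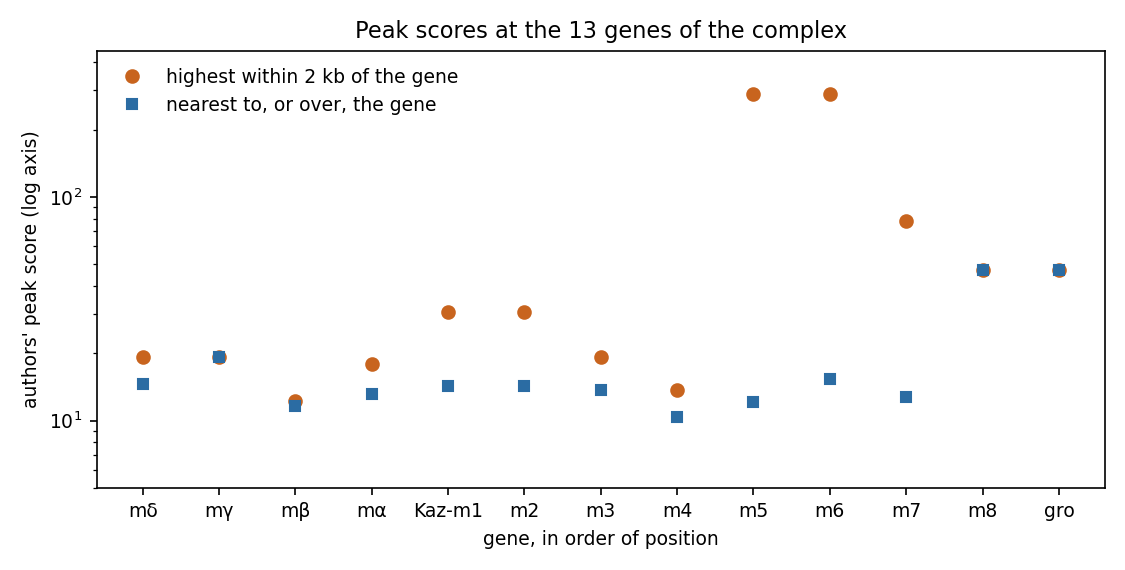
Authors' score (log axis) of the peak over or nearest to each of the 13 genes of the complex (squares, the highest where several overlap) and of the highest peak within 2 kb of it (circles). The squares from mδ to m7 lie between 10.35 and 19.27, and the highest nearby score reaches 289.64 at m5 and m6.

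Less of the peak sequence of the complex lay in protein-coding genes than on the rest of the arm, and such genes also filled less of its sequence. By place, 17 of the 31 peaks lay between protein-coding genes, 6 covered a gene end and 8 lay inside a gene. With the shift of 4174600 bp these counts were 14, 11 and 6, so that the count between genes was no longer the greater part. Median scores of the classes were 12.2, 15.0 and 13.4 at the shift used, and 11.91, 13.17 and 14.15 at that of 4174600 bp. The order of peaks over gene ends and inside genes was thus reversed, and nothing is read from it. Protein-coding genes made up 29.9% of the 46.5 kb and 40.4% of its peak sequence, beside 71.0% of the rest of 3R and 86.6% of the peak sequence there. Within the complex, the 12 stretches between genes were covered by peaks over 31.0% of their length and the 13 gene bodies over 32.5%. The latter value was lowered by gro, which made up 8.176 of the 20.312 kb of gene bodies. It was covered over 16.1% and ran beyond the 46.5 kb. Equal coverage of genes and stretches is therefore not read from these values. Of the 12 stretches, 7 held a peak centre, and the most thoroughly covered was the one between E(spl)m5-HLH and E(spl)m6-BFM, at 66.3%.

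The highest scores lay in the right part of the complex, while the medians of its left and right parts were close. Divided at the middle of the 46.5 kb, the left part had 17 peaks with a median of 12.73 and a highest score of 30.5. The right part had 14, with a median of 13.2 and 3 scores of at least 20. The difference was not tested.

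Of the protein-coding genes that share the window but not the complex, only CG43116 was overlapped by a peak. The share over 3R was 18.3%, and with so few genes nothing is read from this. On the left, CG43116 held the peak of 16.39, and Nf1, which encodes the Ras regulator neurofibromin, had none over it and lay 820 bp from that one. None of the 10 protein-coding genes right of gro, among them Exo84 (exocyst), Vps2 (membrane sorting) and RpL34a (ribosome), had a peak within 2 kb. The median over the 3398 protein-coding genes of 3R was likewise 0 peaks within 2 kb. The 10 genes also lie together in the stretch without a peak described above, and so are not separate observations. Their distances to the nearest peak, the one of 47.3, were 6680 to 18217 bp. Of the 6 non-coding genes placed within the complex, 4 were overlapped by a peak, beside 12.0% of the 828 genes of 3R that are not protein-coding. This count, too, follows in part from the density for which the window was chosen.

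Other genes of the Notch pathway were read on 2L, 2R and 3R, where the 4 parts of each arm gave the same shift within 100 bp. Of a list of 19, 14 could be placed, and 10 of them were overlapped by a peak, beside 18.3% of 8906 protein-coding genes on these arms; many are long genes, and length was not matched. The ligand gene Delta, 23487 bp long, had 5 peaks, of which the highest scored 22.34, and neur, the gene of Neuralized, had 9, up to 13.68. Over numb, which encodes a Notch inhibitor, a peak scored 58.91. Su(H) had 1 peak, of 9.34, and H, the gene of its partner Hairless, 1 of 10.78. The ligand gene Ser had none, and its nearest lay 20047 bp away. Only aph-1, for a subunit of the protease that cuts Notch, had an end inside a peak, of 16.27, and this 1 of 14 is near the 4.56% of protein-coding genes on these arms. Of 9 proneural and related bHLH genes listed, only 4 were placed (ato, da, amos and cato), and none was overlapped. Of 5 other Hairy-class repressor genes listed, 3 were placed, of which dpn had 1 peak, of 16.55, whereas Hey and cwo had none. Both counts are too small to be set apart from the 18.3%. Bearded family genes outside the complex were not placed and not analysed here.

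Some scores in the list fall on a ladder of steps, which is what −log10 Poisson p-values over 1 fixed background of 35.427 fragments would give. A peak on a step could be one scored against the genome-wide background, or could match a step by coincidence. The background was the value that put the most scores of this list on a step, and coincidental matches were not counted. In the complex 2 of 31 scores lay on a step within 0.0075 (6.45%), beside 17.4% of the rest of 3R, a description of scores that helped to choose the window. Both were the scores of 12.7, at E(spl)m4-BFM and in E(spl)m7-HLH. With a tolerance of 0.00375, 0 of 31 lay on a step, so nothing is read from these 2 peaks.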

How the data were processed

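ChIP-seq of CG16778 was deposited as 1 peak list for 2 ChIP and 2 input libraries. Per the file headers, positions are on FlyBase release 5 and MACS called the peaks, and the score column deposited by the authors names no unit. Build BDGP5 and the tools MACS2, BWA and CASAVA (1.7.0.2, 1.7.0.3) stand in the submitters' processing notes. How thresholds were set, replicates pooled and inputs used is not given in the sources used here.

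Peaks were taken as listed, with the midpoint as centre, in Python 3.11.15 with numpy 2.4.6, pandas 2.3.3, scipy 1.17.1 and matplotlib 3.10.9. Spacing, coverage and tiled windows were computed on 3R. Protein-coding genes of the release 6 RefSeq table were moved by 1 shift, at a step of 10 bp, from the mirror symmetry of lower and upper gene ends within 2000 bp. Arms on which 4 equal parts, by number of peaks, differed by over 100 bp (3L and X) were not placed. The planned count of gene starts was made on either end, since the table gives no strand. Sequence words were not run, because no sequence was used here. The shift and ladder functions were tested on simulated data. Named genes were those of the complex, others in the window and fixed pathway lists with a gene end in a peak. Further genes of those lists were named after their values were seen. Members and lists were chosen with earlier results of these data known. Alternatives are given in the closing section.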

Additional observations from a re-analysis of the deposited data

How the results depend on the processing

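Of 44 comparisons of a value with an alternative, 29 stayed within a factor of 1.5, or within 100 bp for the shift, and neither limit is a test. Merging peaks within 500 bp left 16 peaks in the window, with a median width of 1203.5 bp and a median spacing of 2868 bp, as joining implies (measured between peak edges in place of centres, the spacing of 1071 bp was 530.5 bp), and a density ratio of 6.53 in place of 9.76. Taking scores of at least 20 left 4 peaks, and the peaks' own span in place of the 90 kb gave a density ratio of 18.9, both by construction. The count of 5 complex genes with an end in a peak became 11, 12 and 13 when peaks within 250, 500 and 1000 bp were admitted, as a wider margin implies. With the shift that put the most gene ends in peaks, 4174600 bp, it was 9 (9.39% of 3R genes), the peaks that covered a gene end numbered 11 in place of 6, those between genes 14 in place of 17, and the peak of 47.3 then lay inside gro, whereas those of 289.64, 78.04 and 30.5 stayed between genes. That shift, and the lowest and highest of the 4 parts of the arm, were added after the data had been seen. At the lowest of the 4 parts the peak of 11.65 touched E(spl)m4-BFM, and the count was 6. With the tolerance on the score ladder cut to 0.00375, 0 of 31 scores lay on a step, beside 12.2% of the rest of 3R, where the full tolerance gave 17.4%. No paired analysis was possible because libraries have no columns of their own, and leaving out replicates was likewise not possible. Sites below the caller's threshold cannot be judged.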
